A study of Mus musculus with 9 samples.

Results

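The genes of the mitochondrial translation factors were followed in mouse male germ cells that had lost either part of the ClpXP protease. They are the genes whose symbol in the deposited table is Mtif2, Mtif3, Tufm, Tsfm, Gfm1, Mtrf1, Mtrf1l, Mrrf or Gfm2. That gave 9 of 54532 genes, each present once, and all 9 were among the 17266 genes tested. RNA sequencing covered 3 libraries of each of 3 genotypes: ClpX knockout (titled ClpX cKO), ClpP knockout (titled ClpP cKO) and WT (titled Control). All were titled spermatocytes, had male germ cells as their cell type and carried the time label PD 35. Per the series' design text, both knockouts were made with Stra8-Cre, which acts in germ cells from the spermatogonial stage, so somatic cells of the testis keep both genes. The labels do not say whether the controls carried Cre or floxed alleles, how cells were isolated, or whether libraries came from separate animals. A p-value here therefore covers library-to-library spread alone, which may be technical.

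Mitochondria translate their own small genome on their own ribosomes, with a set of factors encoded in the nucleus and related to those of bacteria. Initiation factors place the first tRNA, elongation factors deliver later tRNAs and move the ribosome along, release factors free the finished chain, and recycling factors split the ribosome for another round. All products of this system in mammals are subunits of the respiratory chain and ATP synthase. The ClpP protease of the mitochondrial matrix degrades proteins that its partner, the unfoldase ClpX, threads into it, and in mouse heart ClpP is known to be needed for normal assembly of the mitochondrial ribosome.

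The libraries held 14334436 to 17021685 gene reads. Clpx was at 15.6, 11.3 and 13.2 FPKM (reads per kilobase of gene and per sequencing depth, as deposited) in ClpX cKO, against 59.3, 55.7 and 54.7 FPKM in Control. Clpp was at 5.16, 6.15 and 3.69 FPKM in ClpP cKO, against 9.36, 8.46 and 9.36 FPKM in Control. The partner genes changed too: Clpx fell in ClpP cKO (log2 change -0.58, adjusted p = 0.0088 by limma) and Clpp rose in ClpX cKO (0.49, adjusted p = 0.014). The libraries were not spermatocytes alone. All 9 Sertoli cell markers were detected, with a summed level of 805 to 1122 FPKM in ClpX cKO, 641 to 713 in ClpP cKO and 447 to 468 in Control, and the 9 elongating spermatid markers summed to 1584 to 2441 FPKM in ClpX cKO, 4474 to 5351 in ClpP cKO and 7762 to 17230 in Control. No marker of either list was at 0 in all libraries. Pachytene and diplotene markers summed to 1837 to 2463 FPKM in ClpX cKO, 2585 to 2638 in ClpP cKO and 3450 to 3662 in Control. Early prophase markers summed to 275 to 306 FPKM in ClpX cKO, 247 to 274 in ClpP cKO and 197 to 239 in Control. Spermatogonial markers summed to 71.5 to 89.1 FPKM in ClpX cKO, 61.7 to 71.4 in ClpP cKO and 46.0 to 53.4 in Control. The part of these shifts in the results below was not tested, and in bulk RNA fewer cells of a type and less RNA per cell cannot be told apart. On the first principal component, ClpX cKO 1 lay at 19.1 against 54.7 and 55.5 for the other ClpX cKO libraries, and Control 3 at -39.2 against -55.8 and -52.4.

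The translation factors did not move as a block. In ClpX cKO, 4 of the 9 genes rose (Mtrf1l, Tsfm, Gfm2 and Gfm1), 2 fell (Mrrf and Mtrf1) and 3 did not pass (Mtif2, Mtif3 and Tufm), at a Benjamini-Hochberg adjusted p under 0.05 from limma over all tested genes. In ClpP cKO 2 rose (Tsfm and Mtrf1l), 1 fell (Mrrf) and 6 did not pass. These shares are read against all tested genes, of which 65.6% were called in ClpX cKO (32.1% higher, 33.5% lower) and 44.7% in ClpP cKO (20.7% higher, 24% lower). Among tested protein-coding genes 70.6% were called in ClpX cKO (40.1% higher, 30.5% lower) and 49.3% in ClpP cKO (25.8% higher, 23.5% lower). The 66.7% of factor genes called in ClpX cKO was near these shares, and the 33.3% called in ClpP cKO was below them. All knockout libraries lay on 1 side of Control for 6 of the 9 in ClpX cKO and 7 of the 9 in ClpP cKO, against 69.8% and 61.7% of all tested genes. No factor gene changed by as much as 2-fold on the log2(FPKM + 1) scale. The log2 changes ran between -0.46 and 0.68 in ClpX cKO and between -0.30 and 0.40 in ClpP cKO. Their medians were 0.13 and 0.10, against -0.0008 and 0.01 over all tested genes. The 2 comparisons share the 3 control libraries, so their likeness is not independent evidence.

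**Figure D1:**
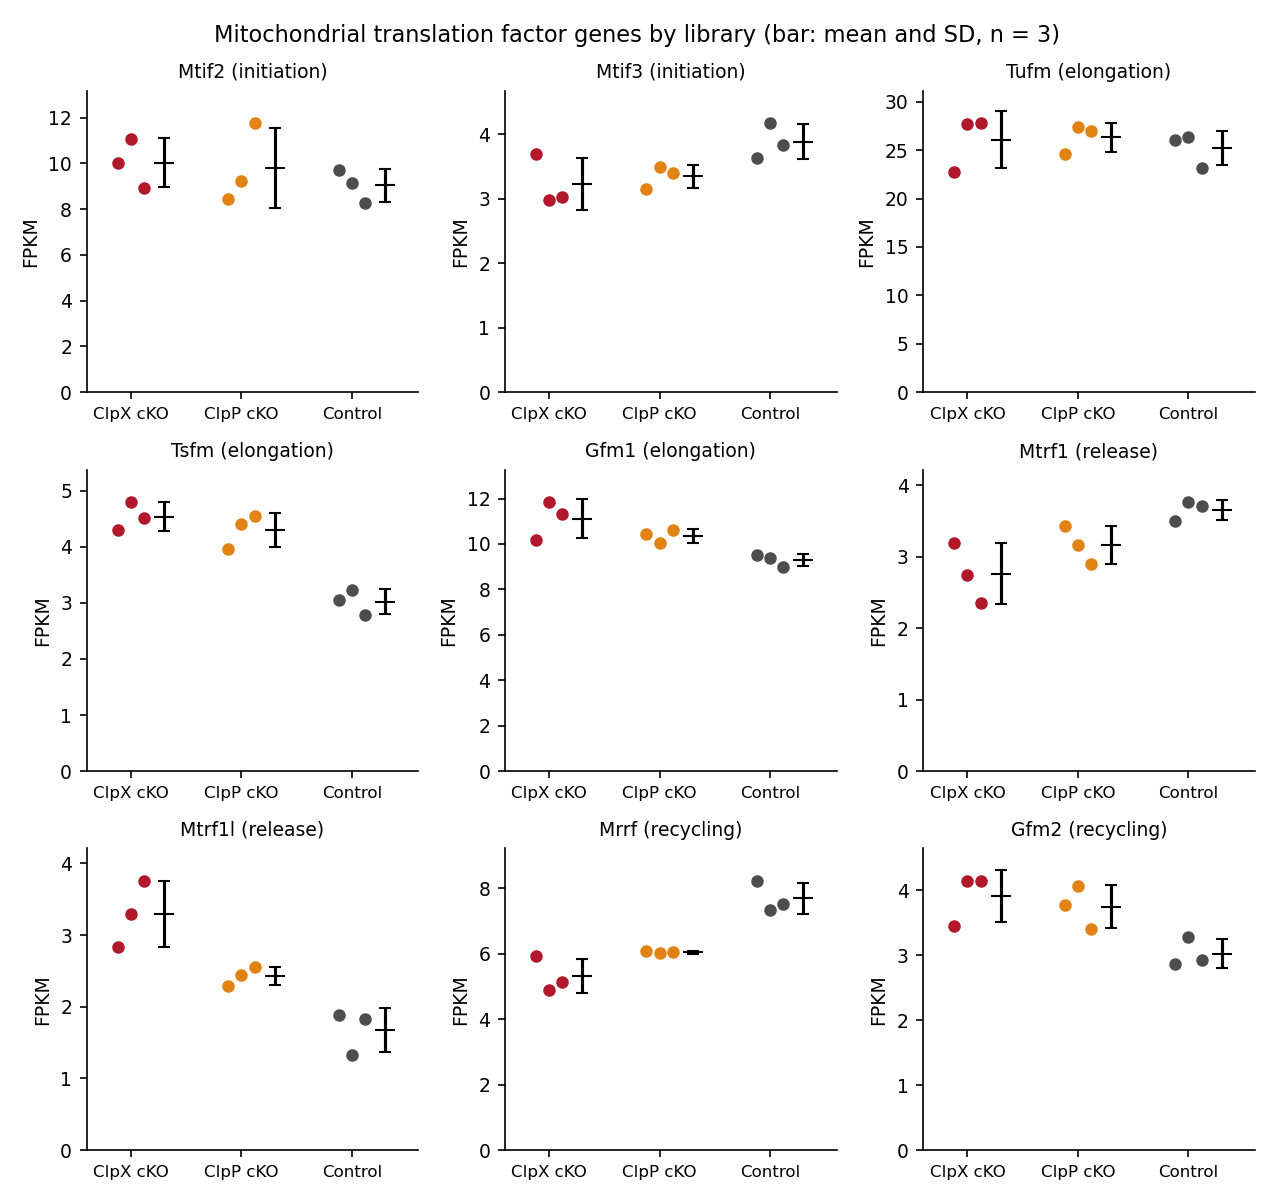
FPKM of the 9 translation factor genes in each library (points; y axis from 0), by genotype on the x axis, with the mean and SD of 3 libraries beside them. Tsfm, Gfm1, Gfm2 and Mtrf1l lie above Control in all 6 knockout libraries, Mrrf and Mtrf1 below it, and Tufm and Mtif2 overlap.

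**Figure D2:**
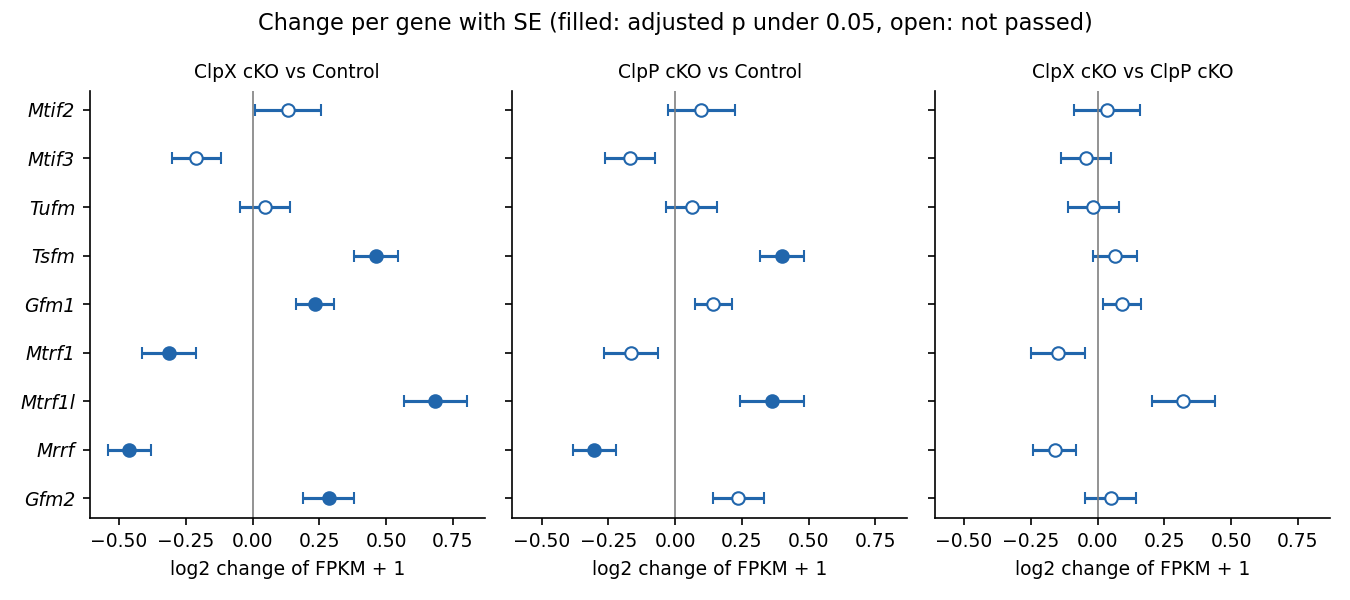
Log2 change of FPKM + 1 with its SE (x axis) for each gene (rows) in the 3 comparisons; filled points passed an adjusted p under 0.05. In ClpX cKO against Control the changes run between -0.46 for Mrrf and 0.68 for Mtrf1l, and no point is filled in ClpX cKO against ClpP cKO.

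The initiation factor genes did not pass in either knockout. Mtif2 (ENSMUSG00000020459, chromosome 11, 29526408 to 29545279, plus strand, GRCm38) encodes the GTPase that brings the formylated initiator tRNA to the small ribosomal subunit. It was at 10.04, 11.1 and 8.94 FPKM in ClpX cKO, at 8.43, 9.22 and 11.8 FPKM in ClpP cKO and at 9.70, 9.14 and 8.27 FPKM in Control. The 3 genotypes overlapped. Its log2 change was 0.13 in ClpX cKO (SE 0.12, adjusted p = 0.372) and 0.10 in ClpP cKO (SE 0.12, adjusted p = 0.534), and in ClpP cKO it turned to -0.03 without ClpP cKO 3, the library with the highest value.

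Mtif3 (ENSMUSG00000016510, chromosome 5, 146951573 to 146963800, minus strand) encodes the factor that keeps the ribosomal subunits apart before initiation. It was at 3.69, 2.98 and 3.02 FPKM in ClpX cKO, at 3.14, 3.50 and 3.39 FPKM in ClpP cKO and at 3.64, 4.18 and 3.83 FPKM in Control. All 3 ClpP cKO libraries lay below Control, while ClpX cKO 1 lay within it. The log2 change was -0.21 in ClpX cKO (SE 0.09, adjusted p = 0.0742) and -0.17 in ClpP cKO (SE 0.09, adjusted p = 0.165). Without ClpX cKO 1 the change in ClpX cKO passed, at -0.29 (adjusted p = 0.016). When each library was scaled by its own sum of gene reads, it was only -0.03 (adjusted p = 0.753). With limma voom on recovered reads it was -0.04 (adjusted p = 0.766). In ClpP cKO the change was -0.02 and -0.03 under these settings, so the size of the fall depended on the scaling. Of the 5127 exon bases of Mtif3, 1505 (29.4%) are shared with Gtf3a on the other strand. Gtf3a, the gene of a transcription factor of RNA polymerase III, was at 1.95 ± 0.493 FPKM in ClpX cKO and 1.13 ± 0.235 FPKM in Control (SD, n = 3 each; log2 change 0.47, adjusted p = 0.044). Whether counting used strand is not given in the sources used here, so reads of the shared bases cannot be told apart.

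Among the elongation factors, Tsfm rose in both knockouts and its partner Tufm did not pass. Tufm (ENSMUSG00000073838, chromosome 7, 126487361 to 126490731, plus strand) encodes the GTPase that carries aminoacyl-tRNAs to the ribosome. It was at 22.7, 27.7 and 27.8 FPKM in ClpX cKO, at 24.6, 27.4 and 26.98 FPKM in ClpP cKO and at 26.1, 26.3 and 23.2 FPKM in Control. The genotypes overlapped, and ClpX cKO 1 and Control 3 were the 2 lowest libraries. The log2 change was 0.05 in ClpX cKO (SE 0.09, adjusted p = 0.687), with a 95% interval of -0.17 to 0.26, and 0.06 in ClpP cKO (SE 0.09, adjusted p = 0.606), with an interval of -0.15 to 0.28. In ClpX cKO its sign turned without Control 3, at -0.01, and it passed when each library was scaled by its own sum of gene reads, at 0.26 (adjusted p = 0.0387), or by quantiles, at 0.30 (adjusted p = 0.0405).

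Tsfm (ENSMUSG00000040521, chromosome 10, 127011572 to 127030840, minus strand) encodes the exchange factor that reloads the Tufm protein with GTP. It was at 4.29, 4.80 and 4.52 FPKM in ClpX cKO, at 3.95, 4.40 and 4.54 FPKM in ClpP cKO and at 3.05, 3.22 and 2.78 FPKM in Control. Every knockout library lay above every control, and the knockouts overlapped each other. Its mean FPKM was 1.503 times Control in ClpX cKO and 1.42 times in ClpP cKO. The log2 change of FPKM + 1 was 0.46 in ClpX cKO (SE 0.08, adjusted p = 0.00153) and 0.40 in ClpP cKO (SE 0.08, adjusted p = 0.0104). Tsfm was the only one of the 9 genes called in both knockouts under every one of the 18 alternatives that gave it a value. Those values rest on 110 to 244 reads per library.

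Gfm1 (ENSMUSG00000027774, chromosome 3, 67430096 to 67476529, plus strand) encodes the elongation factor G that moves the ribosome by a codon. It was at 10.2, 11.9 and 11.3 FPKM in ClpX cKO, at 10.4, 10.02 and 10.6 FPKM in ClpP cKO and at 9.498, 9.38 and 8.98 FPKM in Control. All knockout libraries lay above the controls. Gfm1 rose in ClpX cKO by 0.23 (log2, SE 0.07, adjusted p = 0.0171), and did not pass without ClpX cKO 2 (0.19) or Control 3 (0.21). In ClpP cKO its change was 0.14 (SE 0.07, adjusted p = 0.123).

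The 2 release factor genes went opposite ways. Mtrf1l (ENSMUSG00000019774, chromosome 10, 5811887 to 5823910, minus strand) encodes the factor that frees chains at the standard stop codons of mitochondria. It was at 2.84, 3.29 and 3.76 FPKM in ClpX cKO, at 2.29, 2.44 and 2.55 FPKM in ClpP cKO and at 1.88, 1.32 and 1.82 FPKM in Control. The 3 genotypes did not overlap, with ClpX cKO highest and Control lowest. Its mean FPKM was 1.97 times Control in ClpX cKO and 1.45 times in ClpP cKO. The log2 change of FPKM + 1 was 0.68 in ClpX cKO (SE 0.12, adjusted p = 0.00132), the largest of the 9, and was called under all 18 alternatives. Their log2 changes ran from 0.585 to 1.22, the highest with limma voom on recovered reads. In ClpP cKO it was 0.36 (SE 0.12, adjusted p = 0.0366). That call was lost without Control 1 (0.42), Control 2 (0.26), Control 3 (0.40), ClpP cKO 1 (0.39), ClpP cKO 2 (0.36), ClpP cKO 3 (0.34) or ClpX cKO 2 (0.36), and without the filter on low values. Mtrf1l had the fewest reads of the 9 genes, 66 to 209 per library, where counting error alone is up to 12.3% of the value.

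Mtrf1 (ENSMUSG00000022022, chromosome 14, 79397772 to 79423587, plus strand) encodes the related factor that in human mitochondria has been linked to the non-standard stop codons. It was at 3.20, 2.75 and 2.36 FPKM in ClpX cKO, at 3.43, 3.17 and 2.89 FPKM in ClpP cKO and at 3.50, 3.77 and 3.71 FPKM in Control. Every knockout library lay below every control. Mtrf1 fell in ClpX cKO by 0.31 (log2, SE 0.10, adjusted p = 0.0232), to 0.756 times the control FPKM. This call was lost without Control 2 (-0.30), Control 3 (-0.31), ClpX cKO 2 (-0.31) or ClpX cKO 3 (-0.23), and under scaling by own totals (-0.14, adjusted p = 0.242) or with limma voom (-0.18, adjusted p = 0.317). In ClpP cKO its change was -0.16 (SE 0.10, adjusted p = 0.207).

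The promoter windows of the release factor genes are shown because these relatives moved in opposite directions, and that of Gfm2 because it alone of the factor genes held a searched motif. The windows run from 250 bases before to 50 bases after the start, from RefSeq on GRCm38.p6, 5′ to 3′ along the gene. They are chr10:5823894-5824193 (minus strand) for Mtrf1l, chr14:79397522-79397821 (plus strand) for Mtrf1 and chr13:97137687-97137986 (plus strand) for Gfm2, and capitals mark the motif match.
Mtrf1l: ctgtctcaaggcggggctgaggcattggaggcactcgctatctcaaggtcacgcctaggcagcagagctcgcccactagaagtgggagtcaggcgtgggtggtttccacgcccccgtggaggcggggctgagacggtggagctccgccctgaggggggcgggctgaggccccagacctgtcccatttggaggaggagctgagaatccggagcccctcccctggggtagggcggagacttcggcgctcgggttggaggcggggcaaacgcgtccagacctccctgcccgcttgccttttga
Mtrf1: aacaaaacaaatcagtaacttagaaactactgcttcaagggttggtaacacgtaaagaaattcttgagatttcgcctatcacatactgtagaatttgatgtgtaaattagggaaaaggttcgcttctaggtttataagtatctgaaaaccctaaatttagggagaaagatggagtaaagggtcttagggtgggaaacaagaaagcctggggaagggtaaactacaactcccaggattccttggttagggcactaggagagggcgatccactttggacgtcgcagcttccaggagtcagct
Gfm2: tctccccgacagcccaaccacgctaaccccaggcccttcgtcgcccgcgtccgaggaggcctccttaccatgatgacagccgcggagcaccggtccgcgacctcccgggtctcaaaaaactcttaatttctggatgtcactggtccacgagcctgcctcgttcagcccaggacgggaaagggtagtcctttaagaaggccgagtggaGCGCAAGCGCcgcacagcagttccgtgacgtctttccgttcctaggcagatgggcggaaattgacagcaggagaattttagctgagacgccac

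The share of C and G was 67.3% in the Mtrf1l window and 42.3% in the Mtrf1 window, against a median of 52.7% over 32851 windows. Windows were found for 8 of the 9 genes, all but Mtif3. The motif of nuclear respiratory factor 1, a regulator of many nuclear genes for mitochondria, was searched as GCGC, any base, then TGCGC, on both strands, and was found in 1 of the 8 windows (Gfm2, minus strand, its first base 43 bases before the start) and in 4.60% of all windows. The C/EBP-ATF response element, through which Atf4 acts, was searched as TGATGNAAN on both strands and was in 0 of the 8 windows and 3.95% of all windows. These matches describe letters in a window, not sites.

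The recycling factor genes, whose products act together to split the ribosome after release, also went opposite ways. Mrrf (ENSMUSG00000026887, chromosome 2, 36136389 to 36190647, plus strand), the recycling factor itself, was at 5.92, 4.90 and 5.15 FPKM in ClpX cKO, at 6.08, 6.01 and 6.04 FPKM in ClpP cKO and at 8.23, 7.34 and 7.53 FPKM in Control. The genotypes did not overlap, with ClpX cKO lowest. Mrrf fell by 0.46 in ClpX cKO (log2, SE 0.08, adjusted p = 0.00134), to 0.692 times the control FPKM, and was called under all 19 alternatives. Their log2 changes ran from -0.54 to -0.27, with the smallest fall under scaling by own totals. In ClpP cKO Mrrf fell by 0.30 (SE 0.08, adjusted p = 0.0188), to 0.786 times the control FPKM. The ClpP cKO call was lost without Control 1 (-0.26), ClpP cKO 2 (-0.30) or ClpP cKO 3 (-0.30), and under scaling by own totals (-0.14, adjusted p = 0.17) or with limma voom (-0.16, adjusted p = 0.191). Of its exon bases 7.74% are shared with Rbm18 on the other strand, which did not pass in ClpX cKO (0.16, adjusted p = 0.167) or ClpP cKO (0.10, adjusted p = 0.401).

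Gfm2 (ENSMUSG00000021666, chromosome 13, 97137937 to 97181195, plus strand), the elongation factor G relative that works with the Mrrf protein, was at 3.45, 4.14 and 4.15 FPKM in ClpX cKO, at 3.77, 4.06 and 3.404 FPKM in ClpP cKO and at 2.87, 3.28 and 2.93 FPKM in Control. All knockout libraries lay above the controls. It rose in ClpX cKO by 0.29 (log2, SE 0.09, adjusted p = 0.0263), lost without Control 1 (0.26), Control 3 (0.27), ClpX cKO 2 (0.25) or ClpX cKO 3 (0.25), and without the filter on low values (adjusted p = 0.0519). In ClpP cKO its change was 0.24 (SE 0.09, adjusted p = 0.0703), which passed without ClpX cKO 1 (0.24, adjusted p = 0.0421), a library outside the contrast that enters the shared spread.

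No factor gene passed in ClpX cKO against ClpP cKO, where 18 of 17266 genes (0.104%; 0.0463% higher, 0.0579% lower) and 0.0624% of protein-coding genes were called by limma. An unadjusted p under 0.05 was reached by 1 of the 9 (Mtrf1l), against 4801 of all 17266 tested genes. Limma voom on recovered reads also called 0 of the 9. Mtrf1l, with 2.84 to 3.76 FPKM in ClpX cKO and 2.29 to 2.55 FPKM in ClpP cKO, had the largest difference, 0.32 (log2, 95% interval 0.05 to 0.59, adjusted p = 0.133). Mrrf differed by -0.16 (interval -0.34 to 0.02, adjusted p = 0.226). For Tsfm the difference was 0.06 with an interval of -0.12 to 0.25, and for Tufm -0.02 with an interval of -0.23 to 0.20, so differences of that size between the knockouts cannot be told from 0. The 2 genes whose knockout libraries did not overlap were Mtrf1l and Mrrf (29.9% of all tested genes did not overlap). Both passed without ClpX cKO 1, Mtrf1l at 0.40 (adjusted p = 0.0443) and Mrrf at -0.23 (adjusted p = 0.0475), when 4758 genes were called in all.

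Ratios within a library do not depend on how libraries are scaled to each other. The ratio of Mtrf1 to Mtrf1l in FPKM was 1.13, 0.834 and 0.627 in ClpX cKO, 1.498, 1.30 and 1.14 in ClpP cKO and 1.86, 2.85 and 2.04 in Control. Per length, Mtrf1l exceeded Mtrf1 in ClpX cKO 2 and ClpX cKO 3, and Mtrf1 exceeded Mtrf1l in the other 7 libraries. The log2 ratio was -0.25 ± 0.42 in ClpX cKO, 0.38 ± 0.20 in ClpP cKO and 1.14 ± 0.32 in Control (SD, n = 3 each). The genotypes differed in an exact permutation test of the F statistic over 1680 assignments (upper tail, p = 0.00357, the smallest these assignments can give; 0.0143 adjusted over the 4 ratios examined).

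The ratio of Tsfm to Tufm was 0.189, 0.173 and 0.162 in ClpX cKO, 0.161, 0.161 and 0.168 in ClpP cKO and 0.117, 0.122 and 0.120 in Control. All 6 knockout libraries lay above the controls, and the knockouts overlapped. The genotypes differed in the same exact permutation test (p = 0.00714, adjusted 0.0143). That call was lost when genotypes were permuted only within replicate numbers. Such permutation allows far fewer assignments, so the smallest p it can give is larger. The loss therefore does not show that the difference depends on the replicate number. The ratio of Mtif3 to Mtif2 averaged 0.325 in ClpX cKO, 0.347 in ClpP cKO and 0.432 in Control and did not pass (exact permutation p = 0.104, adjusted 0.138). That of Gfm2 to Gfm1 averaged 0.351 in ClpX cKO, 0.362 in ClpP cKO and 0.326 in Control and did not pass either (exact permutation p = 0.375).

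**Figure D3:**
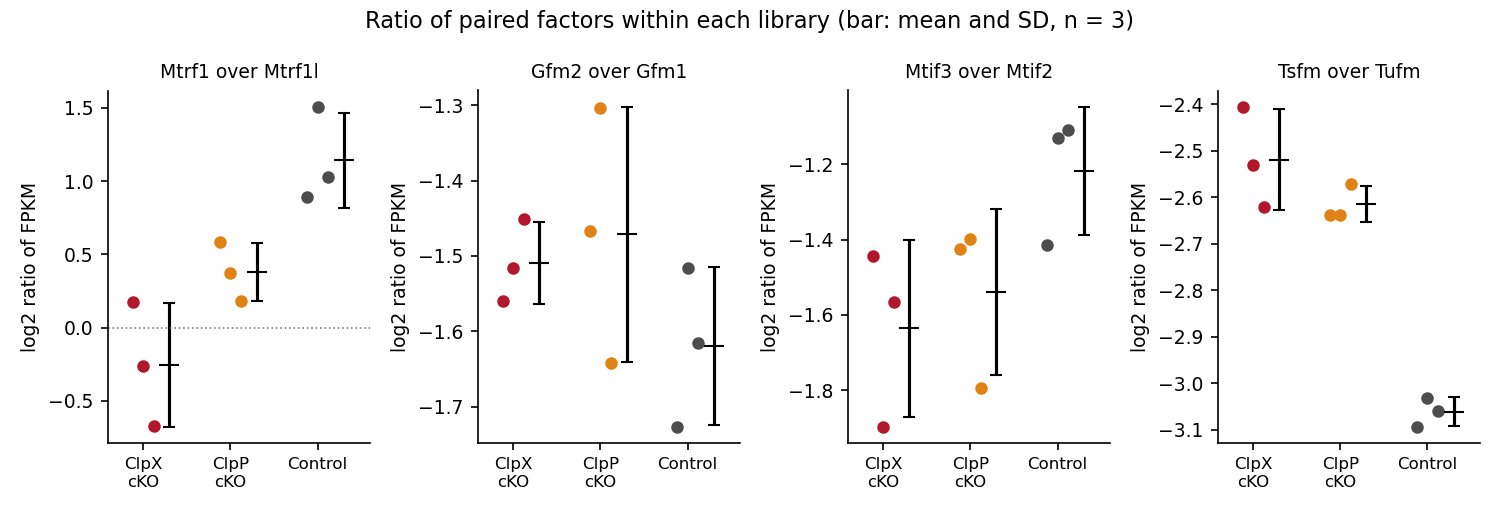
Log2 ratio of FPKM of 2 factor genes within each library (points; each panel has its own y axis), by genotype on the x axis, with the mean and SD of 3 libraries. Mtrf1 over Mtrf1l averages -0.25 in ClpX cKO, 0.38 in ClpP cKO and 1.14 in Control; the dotted line marks equal FPKM.

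The order of levels per length shifted with genotype. Length here is the union of annotated exons, longest for Gfm2 (10685 bases), so a gene's place among the others depends on its annotation. In ClpX cKO Tsfm (4.54 ± 0.255 FPKM) and Gfm2 (3.91 ± 0.402) stood above Mtif3 (3.23 ± 0.403), and Mtrf1 (2.77 ± 0.421) was last (SD, n = 3 each). The ranges of Gfm2, Mtrf1l, Mtif3 and Mtrf1 overlapped there from each to the next, and those of Gfm2 and Mtif3 overlapped too. In ClpP cKO Tsfm, Gfm2, Mtif3 and Mtrf1 overlapped likewise, and Mtrf1l (2.43 ± 0.129) was last. In Control the order was Tufm (25.2 ± 1.76 FPKM), Gfm1 (9.29 ± 0.270), Mtif2 (9.03 ± 0.719), Mrrf (7.70 ± 0.473), Mtif3 (3.88 ± 0.272), Mtrf1 (3.66 ± 0.141), Gfm2 (3.03 ± 0.220), Tsfm (3.02 ± 0.224) and Mtrf1l (1.68 ± 0.307; SD, n = 3 each). The neighbours Gfm1 and Mtif2, Mtif3 and Mtrf1, and Gfm2 and Tsfm overlapped. Tufm lay at the 83.5th percentile of tested protein-coding genes in ClpX cKO and at the 79.5th in Control. Mtrf1l lay at percentile 23.3 in ClpX cKO and at percentile 12.2 in Control.

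The direction of the factor genes was examined under other scalings, because scaling by own totals moved the median log2 change of all tested genes to 0.18 in ClpX cKO and 0.16 in ClpP cKO. The deposited FPKM carry a per-million denominator of 1.07 ± 0.017 times the library's own gene reads in ClpX cKO, 1.05 ± 0.0037 in ClpP cKO and 0.919 ± 0.028 in Control (SD, n = 3 each). Median-of-ratios and own-total scaling multiply each library by 1 constant, so a change relative to the median of all tested genes hardly moves under them. Quantile scaling can move it, and under it the relative changes of the 9 factor genes had the same sign as with the deposited scaling in both knockouts, with Mtif2 nearest to 0 (0.04 in ClpX cKO, 0.02 in ClpP cKO). Under own totals the calls were 6 higher and 1 lower among factor genes in ClpX cKO, and 4 higher and 0 lower in ClpP cKO, while over all tested genes 7366 calls were higher and 4265 lower in ClpX cKO, and 5992 were higher and 2404 lower in ClpP cKO. Under quantile scaling 5 factor genes were called higher and 2 lower in ClpX cKO, against 6376 and 4725 of all tested genes, and 2 were called higher and 1 lower in ClpP cKO, against 4035 and 2667. Over the 4 scalings the relative change in ClpX cKO of Mtrf1l lay between 0.62 and 0.69, of Tsfm between 0.37 and 0.46, of Mrrf between -0.55 and -0.45 and of Mtrf1 between -0.40 and -0.31.

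**Figure D4:**
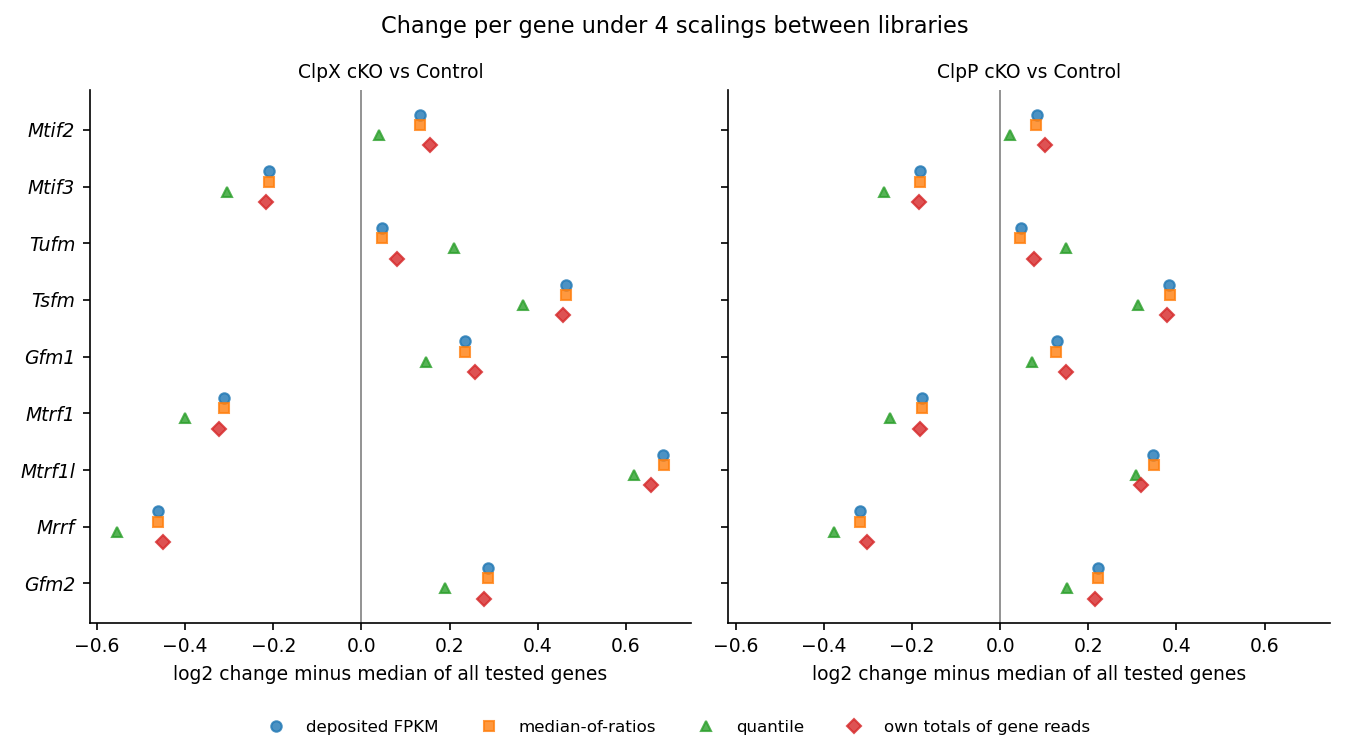
Log2 change minus the median log2 change of all tested genes (x axis) for each factor gene (rows) under 4 scalings between libraries (symbols), for both knockouts against Control. Median-of-ratios and own-total points lie near the deposited ones by construction, quantile points lie apart for some genes, and in ClpX cKO Mrrf stays between -0.55 and -0.45 and Mtrf1l between 0.62 and 0.69.

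Other gene groups of translation, from lists of known genes, were set beside the factors. The 3 mitochondrial groups held more genes that rose than fell in both knockouts under each scaling run. Cytosolic factors held more that fell as deposited and under median-of-ratios, but more that rose under quantile, own-total and voom scaling. Calls over all tested genes also leaned higher under those last scalings. Relative to the median of all tested genes, the cytosolic median in ClpX cKO was -0.29 as deposited and with voom. It was -0.24 under own totals and 0.08 under quantile scaling. Of 11 tested accessory factors 6 rose and 0 fell in ClpX cKO (median log2 change 0.30), and 7 rose and 0 fell in ClpP cKO (median 0.33). The 54.5% called in ClpX cKO was below the 70.6% of protein-coding genes, and the 63.6% called in ClpP cKO was above the 49.3%. Oxa1l, which inserts newly made chains into the inner membrane, was at 9.23 ± 1.60 FPKM in ClpX cKO and 5.32 ± 0.255 FPKM in Control (0.68, SE 0.11, adjusted p = 9.3e-04). Guf1, a translation GTPase related to bacterial LepA, rose in ClpX cKO (0.53, SE 0.11, adjusted p = 0.0036) and in ClpP cKO (0.47, SE 0.11, adjusted p = 0.015). Metap1d, the mitochondrial methionine aminopeptidase, was at 5.30 ± 0.224 FPKM in ClpP cKO and 3.06 ± 0.122 FPKM in Control (0.63, SE 0.08, adjusted p = 0.0086; SD, n = 3 each).

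Of 23 mitoribosome assembly genes 13 rose and 5 fell in ClpX cKO (median 0.36), and 7 rose and 3 fell in ClpP cKO (median 0.26). The 78.3% called in ClpX cKO stood against 70.6% of protein-coding genes, and the 43.5% called in ClpP cKO was close to the background of 44.7% of all genes and 49.3% of protein-coding genes. Mpv17l2, an inner membrane protein of ribosome assembly, rose in ClpX cKO (1.05, SE 0.12, adjusted p = 4.5e-04) and in ClpP cKO (0.71, SE 0.12, adjusted p = 0.0086). Mettl17, a factor of small subunit assembly, rose in ClpP cKO (0.44, SE 0.09, adjusted p = 0.0099). Nsun4, an RNA methyltransferase of the mitochondrial ribosome, was at 15.1 ± 4.82 FPKM in ClpX cKO and 51.0 ± 8.48 FPKM in Control (-1.72, SE 0.22, adjusted p = 4.7e-04; SD, n = 3 each).

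Of 78 tested mitoribosomal protein genes 31 rose, 9 fell and 38 did not pass in ClpX cKO (median 0.18), while 17 rose, 6 fell and 55 did not pass in ClpP cKO (median 0.14). These genes were taken by symbol alone (Mrpl or Mrps with a digit, and Dap3), and Mrpl58 is also among the accessory factors. The share that rose is close to that of all tested protein-coding genes in ClpX cKO (40.1%) and below it in ClpP cKO (25.8%). The 9 that fell in ClpX cKO and the 6 that fell in ClpP cKO are smaller shares than the 30.5% and 23.5% of protein-coding genes, and calls in all (51.3% in ClpX cKO, 29.5% in ClpP cKO) were below the 70.6% and 49.3%. Under own totals 50 rose and 1 fell in ClpX cKO, and 42 rose and 0 fell in ClpP cKO. Over all 17266 tested genes that scaling called 7366 higher and 4265 lower in ClpX cKO, and 5992 and 2404 in ClpP cKO. The group's median relative to that of all tested genes was 0.18 as deposited and 0.19 under own totals in ClpX cKO. In ClpP cKO it was 0.12 and 0.14. The small subunit gene Mrps24 rose in ClpX cKO (0.91, SE 0.11, adjusted p = 4.7e-04) and in ClpP cKO (0.52, SE 0.11, adjusted p = 0.0115). The large subunit gene Mrpl50 rose in ClpX cKO (0.57, SE 0.10, adjusted p = 0.0014), and Mrpl18 fell in ClpP cKO (-0.41, SE 0.08, adjusted p = 0.0104). Mrpl53 was listed at 0 in all libraries. Of 19 cytosolic factors 4 rose and 11 fell in ClpX cKO (median -0.29), and 2 rose and 7 fell in ClpP cKO (median -0.16). The 78.9% called in ClpX cKO stood against 70.6% of protein-coding genes, and the 47.4% called in ClpP cKO was about the background. Under quantile scaling 9 rose and 2 fell in ClpX cKO (median 0.17), and 7 rose and 1 fell in ClpP cKO (median 0.12). Calls over all tested genes under quantile scaling were 6376 higher and 4725 lower in ClpX cKO, and 4035 and 2667 in ClpP cKO. With own totals 7 cytosolic factors rose and 4 fell in ClpX cKO, and 6 rose and 1 fell in ClpP cKO. Eef1d, a subunit of the cytosolic exchange factor, was at 31.6 ± 5.71 FPKM in ClpX cKO and 88.1 ± 19.8 FPKM in Control (-1.44, SE 0.18, adjusted p = 4.7e-04; SD, n = 3 each). Of the eIF2 subunit genes, Eif2s3x rose in ClpX cKO (0.64) and in ClpP cKO (0.41) and Eif2s2 rose in ClpP cKO (0.35), while Eif2s1, named after its values were seen, fell in ClpX cKO (-0.44, adjusted p = 0.00079) and in ClpP cKO (-0.24, adjusted p = 0.0241). Sertoli markers were called higher in 9 of 9 and elongating spermatid markers lower in 9 of 9 in each knockout, and their part in these counts was not tested.

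**Figure D5:**
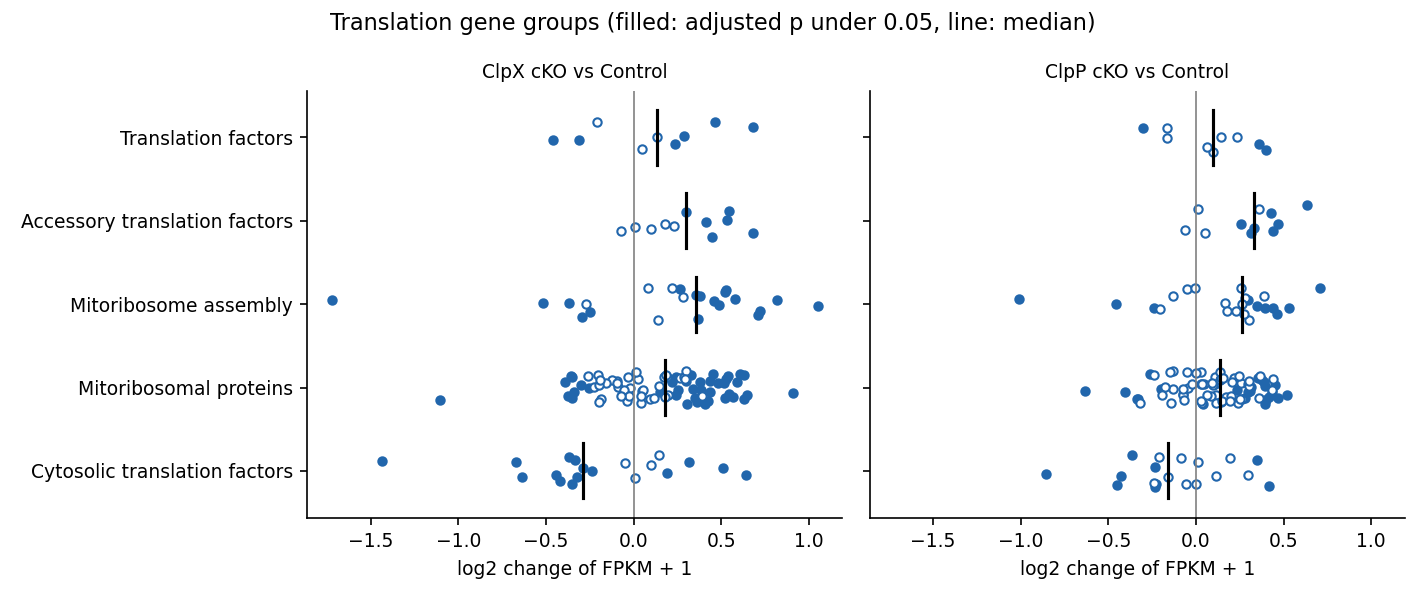
Log2 change of FPKM + 1 (x axis) for each tested gene (points, spread vertically for sight only) of 5 translation gene groups (rows), for both knockouts against Control; filled points passed and the black line is the group's median. In ClpX cKO the medians are 0.13 for the factor genes, 0.30, 0.36 and 0.18 for the 3 other mitochondrial groups and -0.29 for cytosolic factors.

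The tested protein-coding genes most like 8 of the factor genes over the 9 libraries were found by the root mean square difference of log2(FPKM + 1) centred on each gene's mean. For Tsfm they were Zfp408 (0.034) and Sars (0.034), the cytosolic seryl-tRNA synthetase gene, against a spread of Tsfm itself of 0.21. For Mrrf they were Usp20 (0.031) and Pam16 (0.043), an import motor subunit gene, against 0.20, and for Mtrf1 Plk4 (0.041) and 0610010F05Rik (0.043) against 0.16. Gfm2 was nearest to Pwp1 and Tmem167 (0.029 and 0.031), Gfm1 to Cdk11b and Gtf3c5 (0.029 and 0.032), Mtif3 to Tprgl and Lrrc59 (0.043 and 0.047), Mtif2 to Egr4 and Ppp2r3d (0.056 and 0.058) and Tufm to Zfp706 and Ogfod2 (0.031 and 0.045). The libraries share genotype, depth and scaling, so this likeness is a description.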

How the data were processed

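RNA from 9 libraries was sequenced after SMARTER library preparation, per the labels' protocols. The deposited values are FPKM per gene, computed by the authors against GRCm38 (mm10), per the submitters' processing notes; aligner, counter and strand setting are not given in the sources used here. The table also gives gene length in bases, which equalled the union of exons in GENCODE release M21 for all 9 genes. Multiplying FPKM by length gave whole reads for 100% of values once divided by a constant of the library (within 0.01 of a read), and these recovered reads were used for counting errors, which cover counting only.

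The 17266 genes (12827 protein-coding) averaging 1 FPKM or more were fitted as log2(FPKM + 1), with a variance trend and 1 model for the 9 libraries, by limma 3.58.1 (R 4.3.3). Tests were two-sided with Benjamini-Hochberg adjustment over all tested genes, and a fold on this scale understates changes of low genes. The script was tested on simulated data. Replicate numbers were not taken to pair the libraries in the main tests. Deviations of same-numbered libraries correlated over 0.1 in 4 of 9 pairs, and 7 of 9 libraries correlated best with one of their own number. All 9 members are named; of each gene group, the 2 called genes with the smallest adjusted p per knockout against Control are named, and 2 genes nearest each member. Some results that this rule names are not reported here. Rbm18, Gtf3a and Mrpl53 were named after their values were seen. The members, lists, tests and alternatives were chosen with earlier results of these data known. Mtrfr was not matched, Mtres1 was matched through a synonym in RefSeq's table, and 11 of 13 accessory, 23 of 23 assembly, 78 of 79 ribosomal and 19 of 19 cytosolic genes were tested. Python 3.11.15, pandas 2.3.3, numpy 2.4.6 and matplotlib 3.10.9 were used. Alternatives were another pseudocount (0.1), filters (none, or a mean FPKM of at least 5), 3 scalings, voom, a fit per pair of genotypes, a replicate block, and leaving out libraries; those of the gene groups were chosen after seeing the data.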

Additional observations from a re-analysis of the deposited data

How the results depend on the processing

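Among the 9 factor genes, Tsfm in both knockouts and Mtrf1l and Mrrf in ClpX cKO kept direction and call under every alternative run that gave them a value. A mean FPKM of at least 5 kept 4 factor genes and called 2 in ClpX cKO and 1 in ClpP cKO, with 6871 genes in all called in ClpX cKO. Leaving out 1 library gave 3 to 7 factor genes called in ClpX cKO, 1 to 4 in ClpP cKO and 0 to 2 between the knockouts, and over all genes 9825 to 11779, 3617 to 8729 and 0 to 4758. Over all genes, ClpX cKO against ClpP cKO gave 29 calls under quantile normalization, 830 with voom, 89 when only those 6 libraries were fitted and 1 with the replicate block. Without Control 3 and ClpX cKO 1 it gave 5149, with 1 factor gene called (Mtrf1l). The cause was not tested.

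Of values that did not pass in the main fit, these changed sign under an alternative. Tufm in ClpX cKO against ClpP cKO was 0.077 under quantile normalization, 0.022 under own totals, 0.026 with voom and 0.077 without Control 3 and ClpX cKO 1, and between -0.064 and 0.077 with 1 library left out. With 1 library left out, Tufm in ClpX cKO against Control lay between -0.011 and 0.14 and Mtif2 in ClpP cKO against Control between -0.029 and 0.19. In ClpX cKO against ClpP cKO Mtif2 lay between -0.057 and 0.16, Gfm2 between -0.0039 and 0.12 and Mtif3 between -0.12 and 6.6e-05. Own totals and voom also called Mtif2 (0.34 and 0.37) and Tufm (0.26 and 0.27) in ClpX cKO, and Gfm1 and Gfm2 in ClpP cKO. Quantile normalization called Tufm in ClpX cKO as well (0.30).

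Same-numbered libraries had correlations of deviations from -0.07 to 0.23, over 0.1 in 4 of 9 pairs. Those of different numbers ran from -0.24 to 0.11, and 7 of 9 libraries correlated best with one of their own number. The libraries were not treated as paired in the main tests, and whether the numbers mark pairs was not tested. With the replicate number as a block, the factor gene calls stayed at 6 in ClpX cKO, 3 in ClpP cKO and 0 between the knockouts. The Tsfm to Tufm difference of 0.54 (log2, ClpX cKO minus Control) did not pass within replicate blocks (exact permutation p = 0.0556, not adjusted over the ratios). Few assignments are possible within blocks, so the smallest p they can give is larger than over all assignments. With 1 library left out the Tsfm to Tufm log2 difference of 0.54 (ClpX cKO minus Control) lay between 0.48 and 0.59. That of Mtrf1 to Mtrf1l lay between -1.61 and -1.19. Counting error of 66 reads, the lowest value, limits Mtrf1l in Control.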
